A study of Mus musculus with 6 samples.

Results

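A set of 10 genes that mark the blood vessels and supporting tissue of the pancreatic islet was followed in isolated mouse islets after cisplatin, a platinum compound that crosslinks DNA. They were Vegfa, Kdr, Flt1, Eng, Esam, Pecam1, Rgs5, Col1a2, Col3a1 and Sparc, and every probe row carrying one of these symbols was taken, 20 of 30146 rows in the table, for 10 of 21400 symbols. Islets came from 3 male C57Bl/6 mice of wild-type genotype. The islets of each mouse were divided between 10 uM cisplatin and the 0.9% saline vehicle and cultured for 48 h, which gave 3 cisplatin and 3 vehicle libraries. Expression was read with TempO-Seq, which ligates pairs of neighbouring detector oligonucleotides on their target RNA and counts the products. A row therefore reports the stretch of RNA under its probe, and rows of different genes are not compared in level here, since probes differ in efficiency.

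Islets are among the most densely vascularised tissues of the body. Beta cells secrete VEGF-A, which binds VEGF receptors on the endothelial cells that line islet capillaries, and those capillaries are wrapped by pericytes and lie on a basement membrane of collagens and laminins. Endothelial cells and pericytes remain in islets after isolation but lose blood flow and tend to decline in culture. In lysates of whole islets, fewer cells of a type and less RNA per cell cannot be told apart.

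Libraries held 1116916 to 1366829 counts with cisplatin and 1470227 to 2272276 with vehicle. Levels are given as CPM (counts per 1000000 counts of a library) on a scale set by trimmed mean of M-values (TMM) factors, and as log2 fold changes of cisplatin minus vehicle with their standard error (SE). Calls required adjusted p-values below 0.05 in edgeR's quasi-likelihood test over all 9381 tested rows. Insulin rows took 3.31% to 10.8% of the counts of a library, and insulin marks the beta cells of islets. Cisplatin library 3 stood apart: mitochondrially encoded rows took 28.6% of its counts, against 0.188% to 3.11% in the other libraries, so values without it are given beside some of the results. Endothelial markers were in the panel, but most had few counts in these libraries. The VE-cadherin gene Cdh5, by its most abundant row, totalled 0 counts in cisplatin libraries and 6 in vehicle libraries, and the tight junction gene Cldn5 totalled 6 and 0.

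Of the 20 rows, 11 passed the filter on low counts, which covers 8 of the 10 genes, and 9 rows did not, among them the single rows of Flt1 and Pecam1. Of the tested rows, 5 were called lower with cisplatin, from Vegfa, Kdr, Eng and Rgs5, and 13.9% of all tested rows were called lower. The 2 tested Esam rows were called higher, against 11.1% of all tested rows, and 4 rows, of Vegfa, Col1a2, Col3a1 and Sparc, were not called. The filter asks for about 10 counts in at least 3 libraries. The rows of Eng and Rgs5 reached that level in no cisplatin library and that of Kdr in library 1 alone, so being low with cisplatin was part of how they came to be tested, and the counts are given as a description. Rows called lower numbered 2 without vehicle library 1, when 5.82% of all rows were called lower, and 3 without vehicle library 3, when 6.46% were. Leaving out cisplatin library 2 or 3, or any single vehicle library, left 1 row called higher. On library totals alone, which moved the split of all calls from 1038 higher and 1304 lower to 466 and 2016, the rows of these genes gave 1 higher and 6 lower, with Vegfa probe 73235 added. The median log2 fold change was -1.25 over the 11 tested rows and -0.07 over all tested rows. The 11 rows include those of Eng and Rgs5, and 3 of them are of Vegfa, so this median too is a description.

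The promoters of the 4 genes with rows called lower are shown because their RNAs fell together. Each line gives the 250 bases before the start of the gene, 5′ to 3′ on the gene's strand, from RefSeq on GRCm38.p6, while the build used for the deposited counts is not stated. Capitals mark GGAA on either strand (TTCC when it lies on the other strand), the core of the motif that ETS factors bind; ETS factors drive many endothelial genes. The windows lie at chr5:75978456-75978705 on the minus strand for Kdr, chr2:32646345-32646594 on the plus strand for Eng, chr1:169655251-169655500 on the plus strand for Rgs5 and chr17:46032378-46032627 on the minus strand for the more upstream of the pair of Vegfa starts in that table.
Kdr: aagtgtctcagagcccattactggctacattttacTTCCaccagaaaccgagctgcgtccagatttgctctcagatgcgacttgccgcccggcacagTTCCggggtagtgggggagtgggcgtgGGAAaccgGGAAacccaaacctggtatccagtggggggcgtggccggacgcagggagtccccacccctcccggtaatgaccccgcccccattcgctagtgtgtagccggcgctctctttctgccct
Eng: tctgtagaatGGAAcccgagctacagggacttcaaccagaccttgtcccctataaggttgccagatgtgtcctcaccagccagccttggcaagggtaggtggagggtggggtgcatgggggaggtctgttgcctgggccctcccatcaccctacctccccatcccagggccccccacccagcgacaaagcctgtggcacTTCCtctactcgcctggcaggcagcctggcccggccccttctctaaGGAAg
Rgs5: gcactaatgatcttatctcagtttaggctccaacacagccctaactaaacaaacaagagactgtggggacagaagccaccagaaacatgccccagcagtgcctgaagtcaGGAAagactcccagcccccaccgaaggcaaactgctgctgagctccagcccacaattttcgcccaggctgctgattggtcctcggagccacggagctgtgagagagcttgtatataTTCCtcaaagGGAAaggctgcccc
Vegfa: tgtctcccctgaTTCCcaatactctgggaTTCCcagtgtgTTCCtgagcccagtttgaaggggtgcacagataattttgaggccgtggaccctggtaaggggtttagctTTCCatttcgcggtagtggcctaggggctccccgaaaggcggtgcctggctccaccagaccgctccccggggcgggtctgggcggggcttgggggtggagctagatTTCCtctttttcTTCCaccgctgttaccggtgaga
GGAA occurs 4 times before Kdr, 3 times before Eng, 3 times before Rgs5 and 6 times before Vegfa. It is no mark of these genes, since 93.4% of the 32851 windows of that length in the table hold it. The windows differ in their CpG sites, with 16 before Kdr and 11 before Vegfa but 4 each before Eng and Rgs5. GGGCGG on either strand, the core that SP factors bind, was found 2 times each before Kdr and Vegfa and not in the windows of Eng and Rgs5, and 32.7% of all windows hold it. Of the 10 genes, 8 had a window in the table.

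Vegfa codes for the VEGF-A ligand that islet endocrine cells supply to the endothelium. All 3 of its rows were lower in every cisplatin library than in any vehicle library. Such a separation of the groups was common: of all 9381 tested rows, 24.3% showed it with cisplatin lower and 19.1% with cisplatin higher. The separations given below for other rows are to be read beside these shares. The row of probe 29506 was at 69.3, 86.2 and 122 CPM in cisplatin libraries 1 to 3 and at 250.2, 156 and 254 CPM in the vehicle libraries of the same mice. It changed by -1.25 ± 0.32 (SE, adjusted p = 0.0109), a 2.39-fold fall. The row of probe 32022 was at 52.0, 23.2 and 18.8 CPM with cisplatin against 129.9, 64.0 and 133 CPM with vehicle, a change of -1.79 ± 0.44 (adjusted p = 0.00914). Within the vehicle group, mouse 2 had the lowest level of each Vegfa row. The remaining row, of probe 73235, was at 5.23 to 16.5 CPM with cisplatin and 17.9 to 37.8 CPM with vehicle and was not called (-1.56 ± 0.57, adjusted p = 0.0586).

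The rows of Vegfa did not rank the cisplatin libraries alike. By probe 29506 cisplatin library 3 was the highest of the group, while by probes 32022 and 73235 it was the lowest. Within a library, which needs no scale between libraries, the count of probe 32022 per count of probe 29506 was 0.750, 0.269 and 0.154 with cisplatin and 0.519, 0.411 and 0.522 with vehicle. The cisplatin libraries thus lay on either side of the vehicle range, and no difference between the groups was detected (exact permutation p = 0.4, two-sided; 0.1 is the smallest possible). Without cisplatin library 1, probe 29506 was no longer called (-0.97, adjusted p = 0.0583). Leaving out vehicle library 1 (adjusted p = 0.0949) or library 3 (adjusted p = 0.0874) also ended its call. Probe 32022 lost its call without vehicle library 1 (adjusted p = 0.0540), while probe 73235 was called without cisplatin library 1 (-2.10, adjusted p = 0.0158). Without cisplatin library 3, probes 29506 and 32022 were at -1.49 and -1.52 and both stayed called.

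**Figure D1:**
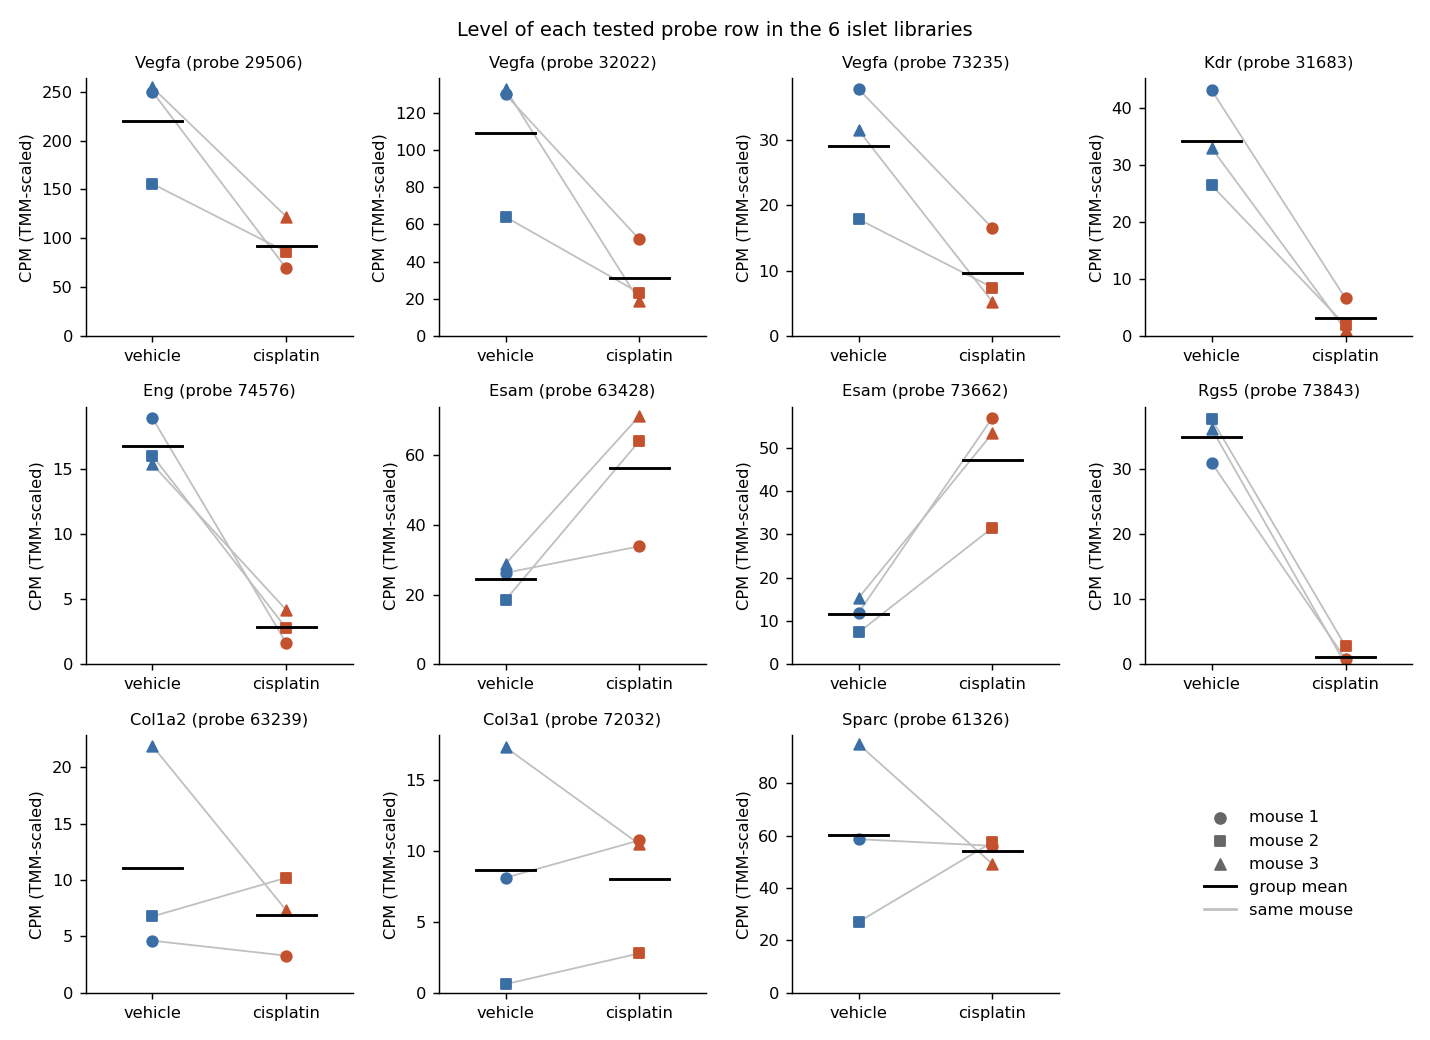
CPM (TMM-scaled, linear axes from 0) of the 11 tested rows in each library, with vehicle libraries in blue, cisplatin libraries in orange, black bars for group means and grey lines joining libraries of the same mouse. The lines fall in all mice for Vegfa, Kdr, Eng and Rgs5, rise in all mice for Esam, and run in both directions for Col1a2, Col3a1 and Sparc.

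Kdr codes for VEGF receptor 2, the main signalling receptor for VEGF-A on endothelial cells. Its only row held 8, 2 and 1 counts in cisplatin libraries 1 to 3 and 112, 43 and 86 counts in the vehicle libraries, or 1.05 to 6.60 CPM against 26.5 to 43.2 CPM. Every cisplatin library was below every vehicle library, and 8 of the 11 cisplatin counts lay in library 1. The change was -3.35 ± 0.65 (adjusted p = 0.00241), a 10.2-fold fall. The ratio of the summed counts, vehicle over cisplatin and scaled to the libraries, was 10.4 (exact 95% counting interval 5.72 to 21.2). The differences within mice 1, 2 and 3 were -2.51, -3.18 and -3.93. Kdr was called under all 20 alternatives; leaving out cisplatin library 1 gave -4.39 and leaving out library 3 gave -2.97.

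Flt1 codes for VEGF receptor 1, which binds VEGF-A tightly and signals weakly, and was too low to be tested. Cisplatin libraries 1 to 3 held 0, 1 and 2 counts of it, vehicle libraries 7, 0 and 3. The vehicle-to-cisplatin ratio of 1.59 had a counting interval of 0.409 to 8.97, so neither a large fall nor a rise in Flt1 was detectable at this depth.

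Eng codes for endoglin, a co-receptor for TGF-beta family ligands on endothelial cells. Its tested row, of probe 74576, held 2, 3 and 4 counts with cisplatin and 49, 26 and 40 counts with vehicle, which is 1.65 to 4.18 CPM against 15.4 to 18.9 CPM. The groups did not overlap, and the vehicle libraries lay close together. The change was -2.54 ± 0.71 (adjusted p = 0.0184), a 5.82-fold fall, and the summed counts gave a ratio of 6.08 (3.09 to 13.6). Leaving out vehicle library 1 (adjusted p = 0.153) or library 3 (adjusted p = 0.104) ended the call, as did limma-voom (adjusted p = 0.0730), with a value of -2.38 or below in each, and it held without cisplatin library 3 (-2.88). The other Eng row, of probe 29264, had 4 counts in each group and was not tested.

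Esam codes for an adhesion molecule of endothelial tight junctions, and it went the other way. Probe 73662 was at 56.9, 31.5 and 53.3 CPM with cisplatin and at 11.9, 7.39 and 15.4 CPM with vehicle. All cisplatin libraries were above all vehicle libraries, a rise of 2.01 ± 0.46 (adjusted p = 0.00618), or 4.02-fold. Probe 63428 was at 33.8, 64.0 and 71.1 CPM with cisplatin and 26.2, 18.5 and 28.8 CPM with vehicle. Here the lowest cisplatin library, of mouse 1, lay just above the vehicle range, and the rise was 1.19 ± 0.40 (adjusted p = 0.0457). The other Esam row, of probe 64295, had 0 counts in all 6 libraries, which allows up to 3 counts over each group.

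The size of the Esam rise depended on the library scale. In raw counts, the 3 Esam rows together held 110, 103 and 119 counts with cisplatin and 99, 42 and 115 with vehicle, in libraries that were deeper with vehicle. On library totals alone, which lowers the median of all rows from -0.07 to -0.53, probe 63428 was at 0.65 and not called (adjusted p = 0.306), while probe 73662 was at 1.57 and still called (adjusted p = 0.0346). With the mouse as a block, probe 63428 was not called (1.15, adjusted p = 0.0675). It was also not called without cisplatin library 2 or 3 or after any vehicle library was left out (adjusted p = 0.103 to 0.133). Probe 73662 was called without each single library in turn, at 1.77 to 2.29, and lost its call without mouse 3 (2.15, adjusted p = 0.0532).

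Pecam1 codes for CD31, an adhesion molecule of endothelial cells, platelets and leukocytes. Its row held 4 counts in cisplatin library 2 and none in the others, and 4 counts each in vehicle libraries 1 and 3. At these counts no difference was detectable: the ratio of 0.952 had an interval of 0.255 to 4.32.

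Rgs5 codes for a regulator of G protein signalling that marks pericytes. Its row had the largest change of the 11 tested rows in the reported fit. It held 1, 3 and 0 counts in cisplatin libraries 1 to 3 and 80, 61 and 94 counts in the vehicle libraries. Vehicle levels lay between 30.8 and 37.6 CPM, and no cisplatin library was above 2.78 CPM. The change was -4.74 ± 0.75 (adjusted p = 5.93e-04). Summed over libraries, 4 counts stood against 235, a ratio of 28.0 (10.8 to 103). Rgs5 was called under all 20 alternatives. Leaving out cisplatin library 2, which held 3 of the 4 counts, gave -6.06, and leaving out library 3 gave -4.24.

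**Figure D2:**
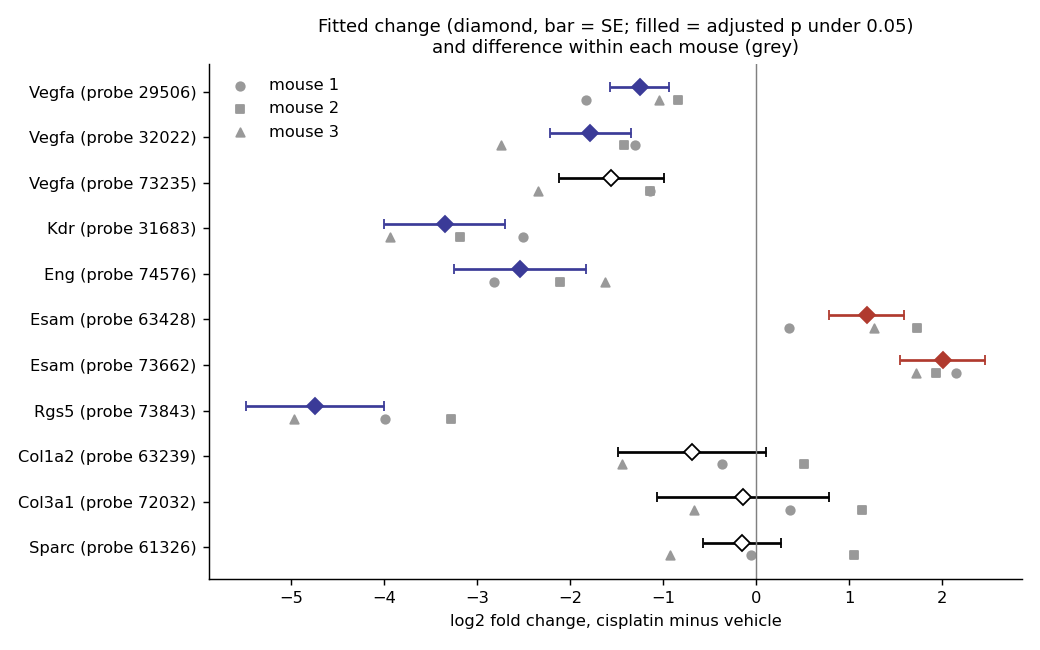
Log2 fold change (cisplatin minus vehicle) of the 11 tested rows, with diamonds for the fitted value, bars for its SE, filled diamonds for adjusted p under 0.05 and grey symbols for the difference within each mouse. Rgs5 and Kdr lie farthest below 0, at -4.74 and -3.35, both Esam rows lie above 0, and the mice scatter around 0 for Col1a2, Col3a1 and Sparc.

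Col1a2 and Col3a1 code for chains of the fibrillar collagens I and III, made by fibroblasts and activated stellate cells. The most abundant Col1a2 row, of probe 63239, was at 3.30, 10.2 and 7.32 CPM with cisplatin and at 4.63, 6.77 and 21.9 CPM with vehicle. The groups overlapped, the row was not called (-0.69 ± 0.80, adjusted p = 0.574), and vehicle library 3 was far above the rest. Col3a1 probe 72032 was at 10.7, 2.78 and 10.5 CPM with cisplatin and 8.09, 0.616 and 17.3 CPM with vehicle, and was not called either (-0.15 ± 0.93, adjusted p = 0.932). Without vehicle library 3 the values turned to 0.32 for Col1a2 and 0.85 for Col3a1, neither called. The 7 collagen rows together held 196 counts in vehicle library 3 but 56 and 19 in vehicle libraries 1 and 2, against 20, 25 and 30 with cisplatin.

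The remaining collagen rows were too low to be tested. Col1a2 probe 75004 summed to 13 cisplatin and 46 vehicle counts, probe 31136 had 1 and 13, and probe 79061 had 0 in all libraries. Col3a1 probe 30618 had 6 and 34 counts and probe 79060 had 7 and 31. Of these, only probe 30618 had a counting interval of its ratio that left out 1 (1.12 to 7.86), and 24 of its 34 vehicle counts came from library 3.

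Sparc codes for osteonectin, a collagen-binding protein secreted by stromal and endothelial cells. Its row was at 56.1, 57.5 and 49.1 CPM with cisplatin and at 58.6, 27.1 and 94.8 CPM with vehicle. The cisplatin libraries lay inside the vehicle range, and the row was not called (-0.16 ± 0.42, adjusted p = 0.827). As with the summed collagen rows, vehicle library 3 was the highest and vehicle library 2 the lowest, and without library 3 the value was 0.36 (not called). Rgs5, Kdr and Eng did not share this order in full. For Rgs5 vehicle library 2 was the highest of the 3 vehicle libraries, at 37.6 CPM. For Kdr it was the lowest, at 26.5 CPM, but vehicle library 1 was the highest, and for Eng vehicle library 3 was the lowest, at 15.4 CPM.

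Ratios of rows within the same library set these genes against each other without any library scale; the pairs were picked after their values were seen. For each count of Esam probe 63428, cisplatin libraries 1 to 3 held 0.195, 0.0290 and 0.0147 Kdr counts and vehicle libraries 1.65, 1.43 and 1.15. For each count of the same Esam probe, they held 0.0488, 0.0435 and 0.0588 Eng counts (probe 74576) against 0.721, 0.867 and 0.533. The groups were far apart in both. That was fixed by the single rows, since every cisplatin library lay below the vehicle libraries for Kdr and Eng and above them for this Esam probe. The exact permutation p of 0.1, two-sided, is the smallest that 3 against 3 libraries allow when their pairing by mouse is left out, as here. It therefore adds nothing to those rows. Kdr per count of Sparc was 0.0213 to 0.118 with cisplatin and 0.348 to 0.977 with vehicle (exact permutation p = 0.1). Kdr, the receptor, was also lower relative to Vegfa, its ligand: per count of Vegfa probe 29506 it was 0.00855 to 0.0952 with cisplatin and 0.130 to 0.173 with vehicle (exact permutation p = 0.1).

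**Figure D3:**
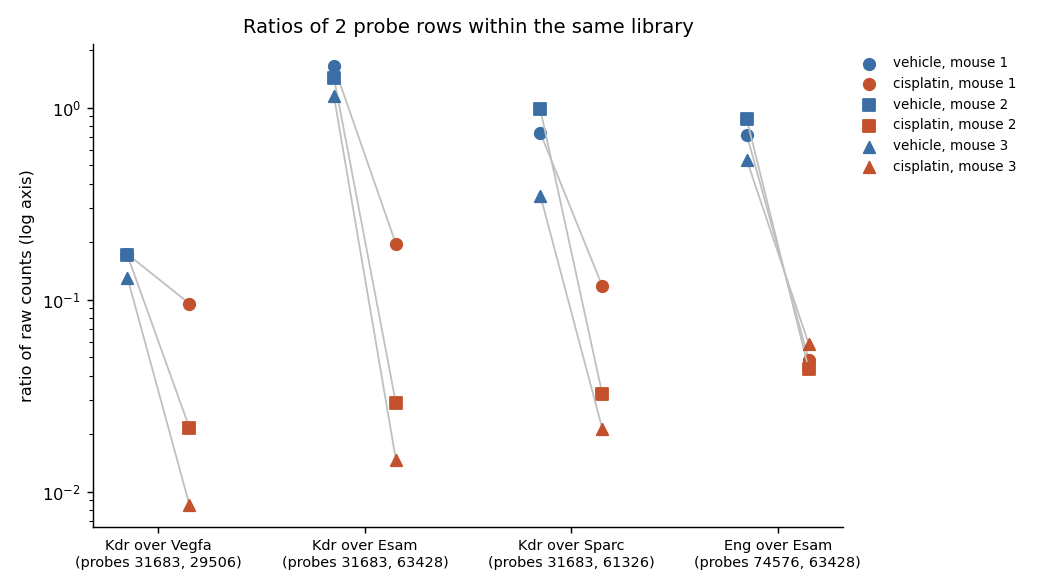
Ratios of raw counts of pairs of rows within each library (log axis), vehicle in blue and cisplatin in orange, with a symbol for each mouse and lines joining libraries of the same mouse. Each cisplatin library lies below every vehicle library in all 4 ratios, and the cisplatin values of Kdr spread widely while those of Eng over Esam lie between 0.0435 and 0.0588.

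Wider lists put these genes among others of their kind, each gene by its most abundant row, without the 10 genes themselves. Of all genes tested this way, 13.8% were called lower and 12.3% higher, with a median of -0.02. At an unadjusted p under 0.05, 1416 of these 7186 genes were lower and 1351 higher. Over all tested rows, DESeq2 called 15% lower and 14% higher, and limma-voom 13.2% and 13%. The counts of each list below are to be read beside these. Of the 29 endothelial markers present, 4 were tested, and 1 was lower and 0 higher by edgeR, with a median of -0.73. At an unadjusted p under 0.05, 1 was higher, as was 1 by DESeq2 and 0 by limma-voom. Cd34, a sialomucin of capillary endothelium, summed to 3 cisplatin and 70 vehicle counts, a change of -3.34 ± 1.03 (adjusted p = 0.0301). It reached the filter level in no cisplatin library, so its low counts there were part of how it came to be tested, and the count of 1 is a description. Its call was lost with a mouse block (adjusted p = 0.0768) and without any single vehicle library or cisplatin library 1 or 3, and leaving out cisplatin library 2 gave -4.24. The adhesion receptor gene Adgrl4 was not called (-2.02 ± 0.94, adjusted p = 0.134), with 10 counts against 90, and was called without cisplatin library 3 (-3.84, adjusted p = 0.0305). Adgrl4 too reached the filter level in no cisplatin library, so the median of -0.73 is likewise a description. The 25 endothelial markers that were too low to be tested summed to 66 cisplatin and 380 vehicle counts, a ratio of 2.74 (2.11 to 3.62). Cisplatin library 3 held 35 of the 66 counts, and without it the ratio was 4.12 (2.85 to 6.14). Of these markers, 11 had counts with vehicle only and 2 with cisplatin only, in libraries that were deeper with vehicle. Among the 11 were Sox18, an endothelial transcription factor, at 22 vehicle counts, Mcam at 16 and Podxl at 12. Vehicle library 2 held 0 counts of Sox18 and of Podxl. Cav1 and Cldn5 went the other way. Cav1 had 19 cisplatin and 20 vehicle counts, a cisplatin-to-vehicle ratio of 1.996 (1.01 to 3.94). Cldn5 had 6 and 0, all 6 in cisplatin library 3. The summed level of the endothelial list was carried by Prox1, a lymphatic marker that islet endocrine cells also express, at 399 to 1134 CPM with cisplatin and 292 to 407 CPM with vehicle. Without Prox1, which was left out after its values were seen, the list summed to 37.9, 38.0 and 92.0 CPM with cisplatin and 157, 80.7 and 125.5 CPM with vehicle, which overlap (exact permutation p = 0.2).

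Of 19 mural cell markers, which cover pericytes and smooth muscle, 4 were tested, and 1 was lower and 1 higher by edgeR, with a median of 0.27. At an unadjusted p under 0.05, 1 was lower and 2 were higher. Anpep, an aminopeptidase found on pericytes and on many other cells, fell from 238 ± 48.2 to 42.3 ± 13.3 CPM (SD, n = 3), a change of -2.50 ± 0.33 (adjusted p = 1.85e-04). Rgs4, a relative of Rgs5 that endocrine cells also use, rose from 55.9 ± 7.88 to 164 ± 57.0 CPM (1.55 ± 0.33, adjusted p = 0.0041). Without mouse 3 it was not called (1.24, adjusted p = 0.0829). The myosin light chain gene Myl9 was not called (1.36 ± 0.48, adjusted p = 0.0550). The untested mural markers summed to 84 counts with cisplatin against 158, a ratio of 0.895 whose interval (0.683 to 1.18) holds 1. That sum rested on Tagln, an actin-binding protein, at 57 and 17 counts, and without it, left out after its values were seen, 27 counts stood against 141, a ratio of 2.49 (1.64 to 3.90). Myh11, the smooth muscle myosin, was at 0 cisplatin and 35 vehicle counts.

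Of the 32 fibroblast and matrix genes present, 10 were tested, with 1 called lower, 0 higher and a median of -1.34 by edgeR. At an unadjusted p under 0.05, 4 were lower and 0 higher, and DESeq2 and limma-voom also called 0 higher. Col18a1 and Bgn reached the filter level in no cisplatin library, so low counts there were part of how they came to be tested. The count of 4 and the median are therefore a description. The gene called lower was Col4a2, a chain of the basement membrane collagen IV, at 4.95, 10.2 and 26.1 CPM with cisplatin and 83.6, 26.5 and 104 CPM with vehicle (-2.41 ± 0.60, adjusted p = 0.0105). Its highest cisplatin library, library 3, came just under its lowest vehicle library, library 2. Leaving out vehicle library 1 (adjusted p = 0.0660), vehicle library 3 (adjusted p = 0.0725) or cisplatin library 2 (adjusted p = 0.0502) ended the call, and the value went to -3.23 when cisplatin library 3 was left out. Its partner chain Col4a1 was at the edge (-2.63 ± 0.92, adjusted p = 0.0501) and was called with a mouse block (adjusted p = 0.0100) and without cisplatin library 3, at -5.11. The basement membrane genes Nid1 (-1.59 ± 0.67, adjusted p = 0.101) and Col18a1 (-3.04 ± 1.06, adjusted p = 0.0505) were not called. The fibrillar collagen gene Col1a1 was at -0.03 ± 0.77, and at 1.69 without vehicle library 3. The 22 untested matrix genes summed to 120 counts against 617, a ratio of 2.45 (2.01 to 3.00). Vehicle library 3 held 369 of the 617 counts, and without it the ratio was 1.59 (1.27 to 1.996).

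For the ligand and receptor pathway around Vegfa, 11 of 33 angiogenic signalling genes were tested, and 1 was lower and 0 higher by edgeR, with a median of -0.57. At an unadjusted p under 0.05, 5 were lower and 0 higher, and DESeq2 and limma-voom called 0 higher. It was Plcg1, the phospholipase that VEGF receptor 2 activates (-1.47 ± 0.50, adjusted p = 0.0469), which lost its call with a mouse block (adjusted p = 0.0501) and when any library but cisplatin library 1 was left out. Dll4, the Notch ligand of endothelial tip cells, was not called (-1.49 ± 0.62, adjusted p = 0.0965), nor was the peptide ligand gene Apln (-2.42 ± 1.03, adjusted p = 0.101). Apln reached the filter level in no cisplatin library, so its low counts there were part of how it came to be tested. The count of 5 and the median are therefore a description. The related ligand Vegfb was at -0.26 ± 0.54, and at 0.21 without cisplatin library 3. Notch4, an endothelial Notch receptor, was at 0 cisplatin and 38 vehicle counts, of which vehicle libraries 1 to 3 held 19, 1 and 18.

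Vegfa is also a target of hypoxia-inducible factors, so other hypoxia-inducible genes were set beside it, in a list that also holds genes of the factors themselves, such as Hif1a. Of the 25 present, 13 were tested, with 0 lower and 1 higher by edgeR and a median of -0.04. At an unadjusted p under 0.05, 0 were lower and 2 higher, and DESeq2 and limma-voom each called 0 lower and 2 higher. The 12 that were too low to be tested summed to 93 cisplatin and 126 vehicle counts. Their vehicle-to-cisplatin ratio was 0.645 (0.489 to 0.852), so they were higher with cisplatin by an interval that left out 1 but covers counting error only. Of all 4499 untested genes with 10 counts or more, 29.5% had such an interval above vehicle and 23.9% below. Ddit4, an inhibitor of mTOR that also responds to DNA damage, rose from 8.28 ± 2.47 to 31.4 ± 13.0 CPM (SD, n = 3; 1.90 ± 0.53, adjusted p = 0.0178), and was not called on library totals alone (1.43, adjusted p = 0.0831). Its call was also lost without cisplatin library 2 or vehicle library 1 or 2 (adjusted p = 0.0592 to 0.0915). Hif1a, the oxygen-regulated subunit itself, was at 0.12 ± 0.29 (adjusted p = 0.814), and at -0.32 on library totals alone.

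**Figure D4:**
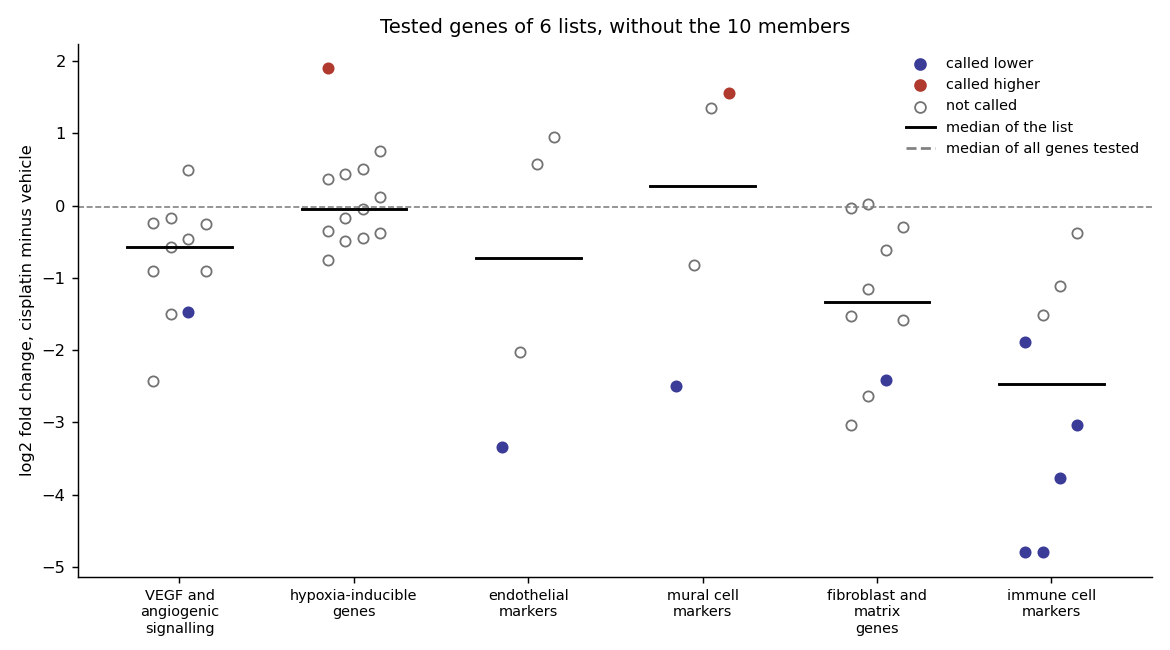
Log2 fold change of each tested gene of 6 lists, without the 10 genes, filled where called, with a bar for the median of each list and a dashed line for the median of all genes tested (-0.02). Most genes of the angiogenic and matrix lists are open symbols below the dashed line. The endothelial and mural markers lie on both sides of it, the hypoxia-inducible genes lie around it, and the immune markers lie below it.

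Markers of other cell types also moved. Of 13 immune markers 8 were tested and 5 were lower (3 without vehicle library 1 or 3), with a median of -2.46. Of those 5, 4 reached the filter level in no cisplatin library, so the count and median are a description. The whole list summed to 21.4 to 116 CPM with cisplatin and 193 to 350.4 CPM with vehicle. Adgre1 and H2-Ab1 had 0 counts with cisplatin but only 10 and 8 with vehicle, and vehicle library 2 also held 0 of each. Cd68, too low to be tested, was higher with cisplatin in mean level, at 6.84 ± 5.99 against 4.95 ± 1.24 CPM (SD, n = 3), and the groups overlapped. Of 7 alpha cell markers 6 were tested and 3 were lower, with sums of 8081 to 10941 CPM against 18511 to 50858 CPM. Of those 3, 1 reached the filter level in no cisplatin library. The 10 beta cell markers summed to 65457 to 144460 CPM with cisplatin and 92145 to 163560 CPM with vehicle, which overlap, and 4 of 9 tested were lower. Duct markers summed to 1396 to 2461 CPM and 1261 to 1695 CPM. Acinar markers summed to 8.36 to 29.7 CPM and 5.54 to 13.8 CPM, with Pnlip and Cel at 0 in all libraries, and glial markers to 3.71 to 14.0 CPM and 3.08 to 5.54 CPM. The part of these cell types in the changes of Kdr, Eng, Rgs5, Esam and Vegfa was not tested.

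**Figure D5:**
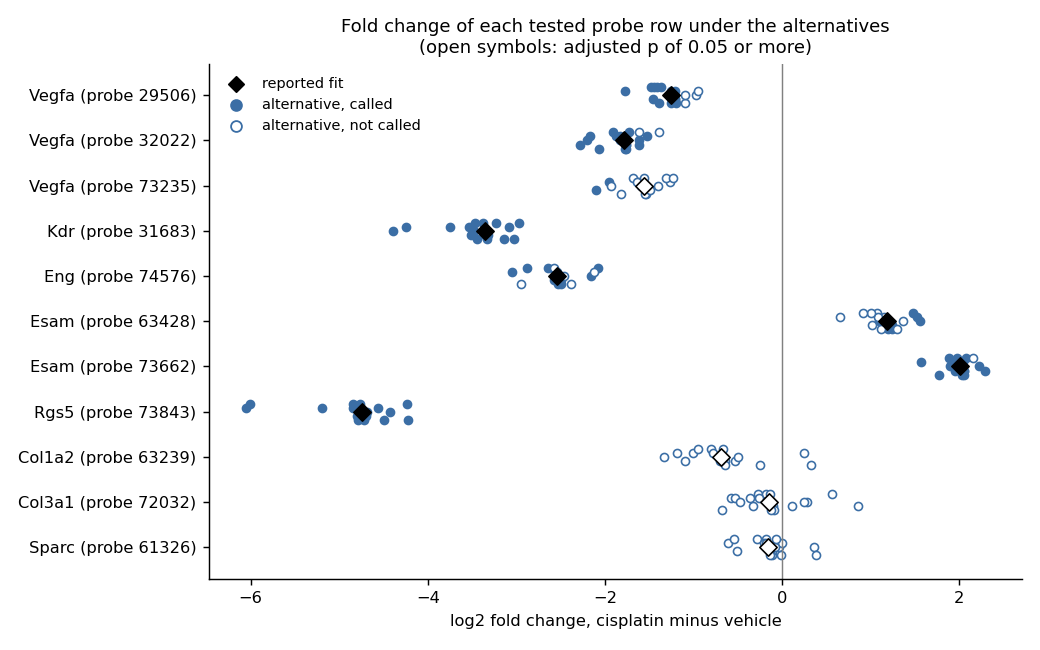
Log2 fold change of the 11 tested rows in the reported fit (diamonds) and under each alternative (circles), filled where called. Kdr and Rgs5 are filled under all 20 alternatives, at -4.39 to -2.97 and -6.06 to -4.22, while Col1a2, Col3a1 and Sparc are open throughout and fall on either side of 0.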

How the data were processed

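The authors deposited raw whole-number counts for each probe row in each library, made with the v1.1 mouse whole transcriptome panel, per the labels' protocols. STAR 2.7.10b, DESeq2 1.44.0 and fastp 0.23.2 are listed, without roles, in the submitters' processing notes. Genome build and counting method were not given in the sources used here.

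All 30146 rows entered 1 fit in edgeR 4.0.16 (limma 3.58.1, R 4.3.3). The expression filter with a minimum count of 10 left 9381 rows, and TMM factors, robust quasi-likelihood F-tests with treatment as the only term and Benjamini-Hochberg adjustment followed, two-sided at 0.05. Each SE was derived from the F statistic of its log2 fold change. Differences within a mouse are of log2 CPM with a prior count of 2. Ratios of summed counts are vehicle over cisplatin, divided by TMM-scaled library totals, with exact binomial 95% intervals. Intervals and the floor of 3 counts per group cover only counting error and leave out the spread between libraries. Amplified reads may share a molecule, so even the counting error may be understated. P-values measure the spread between 3 libraries per arm.

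Both libraries of a mouse carry the same animal identifier in the labels, so they are paired. Their deviations from the group means correlated at -0.116, 0.034 and 0.219 in mice 1 to 3 (other pairs -0.227 to 0.168). The fit without the block is reported, and the replicate block was an alternative, as were other scalings, filters, DESeq2 1.42.0, limma-voom, summed probes, thinning, and each library or mouse left out, 20 in all. The fit was tested on simulated counts. All exact permutation tests split the 6 libraries 3 against 3 in every way and left out the pairing by mouse.

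The genes and lists were chosen with earlier results of these data known. Each of the 5 vascular, matrix, angiogenic and hypoxia lists had its up to 4 called genes of largest change named. Adgrl4, Prox1, Myl9, Col4a1, Col18a1, Bgn, Nid1, Col1a1, Dll4, Apln, Vegfb, Hif1a and the untested genes named were chosen after their values were seen. So was leaving out a library or gene from summed counts of untested genes.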

Additional observations from a re-analysis of the deposited data

How the results depend on the processing

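All 20 alternatives were run; the cause of each change below was not tested. Kdr and Rgs5 were called in all of them. Rows of the 10 genes called lower numbered 2 to 5 when a library or mouse was left out, and those called higher 0 to 2, against 1 on library totals, with no filter, with the replicate block and with probes summed per gene. Vegfa probe 29506 lay at -1.49 to -0.97 over the left-out libraries and lost its call in some (-0.95 without mouse 1); probe 32022 lay at -2.28 to -1.52 (-1.39 without mouse 3, not called) and Esam probe 73662 at 1.77 to 2.29 (2.15 without mouse 3, not called). Vegfa probe 73235 was called on library totals (-1.95), by DESeq2 (-1.54) and without cisplatin library 1 (-2.10 to -1.26 over the libraries). Eng lost its call by limma-voom (-2.47) and in left-out libraries (-2.88 to -2.16) and mice (-2.13, -2.57 and -2.95). Esam probe 63428 lost it on library totals (0.65), with no filter (1.07), with the replicate block (1.15), in left-out libraries (1.01 to 1.55) and without mouse 2 (0.915) or 3 (1.11). Signs turned among values not called. Col1a2 reached 0.24 without mouse 3 (-1.09 to 0.32 over the left-out libraries). Col3a1 was at 0.11 by limma-voom, 0.28 with the replicate block, 0.25 without cisplatin library 2 and 0.56 without mouse 3 (-0.68 to 0.85). Sparc was at 0.0026 with the replicate block and 0.38 without mouse 3 (-0.51 to 0.36). Vegfb was at 0.21, 0.0028 and 0.15 without cisplatin library 3, vehicle library 1 and mouse 3 (-0.92 without cisplatin library 1), and Hif1a at -0.32 on library totals and -0.022 without cisplatin library 2 (up to 0.32). Col1a1 was at 0.015 with RLE factors, 0.029 at a mean CPM floor of 10, 0.031 by DESeq2, 0.54 by limma-voom, 0.57 with the replicate block, 0.24 thinned, and 0.37, 1.69 and 1.62 without cisplatin library 1, vehicle library 3 and mouse 3 (lowest -0.55 over the left-out libraries).

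Angiogenic genes called lower (1) numbered 3 on library totals, 2 with no filter, 0 with summed probes and 0 to 3 over the left-out libraries and mice, and those called higher (0) 1 with no filter. Hypoxia-inducible genes called lower (0) numbered 1 on library totals, and those called higher (1) 0 on library totals, 2 by DESeq2, 2 by limma-voom and 0 to 2 over the left-out libraries and mice. Endothelial markers called lower (1) numbered 2 on library totals, 0 at a mean CPM of 10 or more, 0 with the replicate block, 2 with summed probes and 0 to 1 over the left-out libraries and mice, and those called higher (0) 1 by DESeq2 and 0 to 1. Mural markers called higher (1) numbered 2 with RLE factors, no filter, a mean CPM of 10 or more, DESeq2, limma-voom, summed probes and thinning, and 1 to 2 over the left-out libraries and mice. Matrix genes called lower (1) numbered 2 with upper quartile factors, 4 on library totals, 2 with no filter, 3 by DESeq2, 2 with the replicate block, 2 with summed probes, 2 thinned and 0 to 3 over the left-out libraries and mice. The replicate block, which pairs libraries by mouse, gave 2198 called rows over the table against 2342. Among the genes named it moved the calls of Esam probe 63428, Cd34, Plcg1 and Col4a1 and no other. All calls over the table numbered 1085 and 1264 without vehicle libraries 1 and 3, and 1341, 1511 and 1021 without mice 1 to 3. Under about 10 counts in 3 libraries, rows such as Flt1 and Pecam1 were too low for the test.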

Other observations

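Genes of the same lists that were too low for the test were examined by summed counts, 3 libraries against 3, with exact 95% intervals that cover counting error only and carry no replicate test and no adjustment. By the most abundant row of each, 94 such genes of the angiogenic, hypoxia-inducible, endothelial, mural and matrix lists gave 26 with an interval below vehicle, 8 above, 53 whose interval held 1, and 7 with no counts. Of the 56 with 10 counts or more in all, a level chosen after seeing the data, 46.4% lay below vehicle and 12.5% above, and of all 4499 untested genes of the table with that many, 23.9% lay below and 29.5% above. Among the lower, the matrix-bound growth factor gene Tgfb1 was at 1 cisplatin and 49 vehicle counts, a vehicle-to-cisplatin ratio of 23.3 (3.99 to 940). The endothelial secreted factor gene Egfl7 had 2 and 67 counts, a ratio of 15.9 (4.25 to 134). Thbs1, which codes for the angiogenesis inhibitor thrombospondin 1, had 4 and 69 counts, a ratio of 8.21 (3.07 to 31.0). Cspg4, the NG2 proteoglycan of pericytes, had 2 and 33 counts, a ratio of 7.85 (2.01 to 67.5). Notch4 and Myh11 had no counts with cisplatin. Taking 3 counts over the cisplatin group as the floor, their observed vehicle counts gave a fall of 6.03-fold and 5.55-fold. The exact 95% intervals of the ratios, which also cover error in the vehicle counts, began lower, at 4.67 and 4.28.

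The genes above vehicle by the same measure lay in several lists. Tagln had 32, 17 and 8 counts in cisplatin libraries 1 to 3 and 4, 1 and 12 with vehicle, a cisplatin-to-vehicle ratio of 7.04 (4.04 to 12.9). Adm, the vasodilator peptide adrenomedullin, had 25, 1 and 4 counts against 1, 0 and 1, a ratio of 31.5 (7.997 to 272) that rested mostly on cisplatin library 1. Pgf, a VEGF family ligand of VEGF receptor 1, had 0, 8 and 6 counts against 1, 4 and 7, a ratio of 2.45 (1.05 to 5.80). All genes named here were chosen after their values were seen.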
